A study of Mus musculus with 6 samples.

Results

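Npy and Trh are mouse genes for neuropeptide precursors, and both stood among the genes whose mRNA level differed most between engineered lines of the mouse neural stem cell line NE-4C. Npy encodes the precursor of neuropeptide Y, and Trh encodes the precursor of thyrotropin-releasing hormone. The genes were taken by symbol from the deposited expression tables, 2 of the 14667 genes with a value in at least 1 table, and each had 1 row with values in all 6 libraries. Both were chosen by their measured FPKM in the 3 lines. All their differences between lines are therefore given as descriptions without a test, and tests are given for other genes only.

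Poly(A) RNA was sequenced from 3 lines, 2 libraries a line, all derived from NE-4C, which lacks p53, after knockout of H3f3a, a gene for the histone variant H3.3. The H3.3WT line stably expresses HA-tagged wild-type H3.3. The Cbfa2t2_KO line carries the same tagged wild-type H3.3 and in addition a knockout of Cbfa2t2, a gene for a transcriptional corepressor of the ETO family. The H3.3K27M line stably expresses HA-tagged H3.3 with the lysine-to-methionine change K27M, known from childhood brainstem glioma, and the labels name no change of Cbfa2t2 in it. All lines thus share the p53 deficiency and the H3f3a knockout. The labels name neither the number of clones behind a line nor separate cultures behind the libraries of a line, so the p-values below measure only the spread between these libraries.

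Neuropeptides are cut from larger precursors in the secretory pathway by convertases that act at pairs of basic residues, are often amidated at their carboxy end, and are stored in dense-core vesicles until release. NPY is among the most abundant peptides of the forebrain, where it acts through G protein-coupled receptors on feeding, stress and neural precursor growth. TRH is the tripeptide by which the hypothalamus drives thyrotropin release from the pituitary, and its gene is a classic target of repression by thyroid hormone and of activation by CREB.

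Both genes lie on chromosome 6 of the mouse genome (GRCm38), 42.4 Mb apart and on opposite strands. Npy (ENSMUSG00000029819) spans 49822710 to 49829507 on the plus strand with 4 exons in GENCODE vM21, and Trh (ENSMUSG00000005892) spans 92242061 to 92244650 on the minus strand with 3 exons. No other annotated gene overlaps either of them, so reads of an antisense partner are not at issue in that annotation. The peptide-coding stretches are shown because they are what sets these mRNAs apart from ordinary coding sequence. The Trh reading frame of 256 codons holds 5 copies of the TRH progenitor, all in exon 3. In the lines below, read 5′ to 3′ on the coding strand, the capitals mark the codons of glutamine, histidine, proline and glycine, and the lower-case codons on each side encode the basic residues at which the precursor is cut. The copies start at codons 75, 107, 152, 170 and 201.
Trh copy 1, chr6:92243088-92243111: aaacgcCAGCATCCGGGCaaaagg
Trh copy 2, chr6:92242992-92243015: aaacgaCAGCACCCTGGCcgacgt
Trh copy 3, chr6:92242857-92242880: aagcggCAGCACCCTGGCaggcga
Trh copy 4, chr6:92242803-92242826: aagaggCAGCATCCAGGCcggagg
Trh copy 5, chr6:92242710-92242733: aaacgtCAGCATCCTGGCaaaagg

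The reading frame of Npy has 97 codons and holds a single NPY, which starts at codon 29 and is split between exons 2 and 3. The spliced stretch below covers chr6:49823682-49827501 on the plus strand. Its lower-case codons encode the mature peptide, and the capitals mark the glycine that donates the amide and the lysine and arginine of the cleavage site. The same order of glycine and a basic pair follows the TRH copies above.
NPY stretch: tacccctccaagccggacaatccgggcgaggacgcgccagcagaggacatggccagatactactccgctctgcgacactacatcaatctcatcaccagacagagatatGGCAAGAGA

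The 250 bases before each start site are shown (RefSeq, GRCm38.p6) because both mRNAs differed between lines with an altered chromatin regulator or histone. Capitals mark matches to the motifs searched on both strands. These were the GC box, GGGCGG, and the TATA box, TATAAA, with its variant, TATAAG. The others were the cAMP response element, TGACGTCA, and TGACCTCA, a known site of the Trh promoter for CREB and the thyroid hormone receptor.
Npy, chr6:49822460-49822709, plus strand: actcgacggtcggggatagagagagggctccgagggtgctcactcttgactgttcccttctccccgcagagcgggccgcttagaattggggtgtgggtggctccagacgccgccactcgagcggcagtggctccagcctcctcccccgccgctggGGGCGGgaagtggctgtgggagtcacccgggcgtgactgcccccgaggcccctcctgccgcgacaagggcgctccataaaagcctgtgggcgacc
Trh, chr6:92244651-92244900, minus strand: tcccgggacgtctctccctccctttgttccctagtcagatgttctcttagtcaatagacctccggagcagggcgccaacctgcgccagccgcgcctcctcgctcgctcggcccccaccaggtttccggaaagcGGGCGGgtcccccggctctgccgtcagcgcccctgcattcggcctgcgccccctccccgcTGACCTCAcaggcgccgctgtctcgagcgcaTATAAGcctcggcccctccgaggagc

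Both windows are rich in CpG. The Npy window holds 21 CpG dinucleotides and the Trh window 25, against a median of 6 in the same window of 32851 mouse promoters, of which 83.7% have fewer than Npy and 89.3% fewer than Trh. The motif GGGCGG begins 95 bases before the Npy start and 117 bases before the Trh start, and 32.7% of all promoters hold it. TATAAG, 26 bases before the Trh start, is in 6.65% of promoters, and TGACCTCA, 57 bases before it, in 1.94%. TATAAA (12.4% of promoters) and TGACGTCA (1.55%) are in neither window. These are matches of letters only.

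The level of Npy was lowest in H3.3WT and highest in H3.3K27M. Levels are FPKM, fragments scaled to transcript length and to the total of the library, as the authors deposited them. Npy was at 11.9 and 8.82 FPKM in the H3.3WT libraries, at 28.6 and 37.0 FPKM in the Cbfa2t2_KO libraries and at 67.0 and 83.4 FPKM in the H3.3K27M libraries. The groups did not overlap, and each step in the order H3.3WT, Cbfa2t2_KO, H3.3K27M was wider than the gap between the libraries of either group. Npy and Trh were chosen by these values, so the separation of groups is a description for both. The share of all genes that separate in this way is not given. In the H3.3WT libraries 68.8% and 62.1% of the 14082 genes with values in all 6 libraries were below Npy, and in the H3.3K27M libraries 94.3% and 95.0%.

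Trh ran the other way against H3.3WT and in another order. It was at 33.2 and 37.2 FPKM in H3.3WT, at 3.03 and 3.62 FPKM in Cbfa2t2_KO and at 10.4 and 10.7 FPKM in H3.3K27M. No groups overlapped here either, and the order was Cbfa2t2_KO, H3.3K27M, H3.3WT from low to high. The share of genes below Trh was 86.8% and 88.1% in H3.3WT, 39.5% and 46.2% in Cbfa2t2_KO and 68.3% and 69.8% in H3.3K27M. The low Trh levels remained well above the level of 0.5001 FPKM that every gene of the tables reached in at least 1 library.

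**Figure D1:**
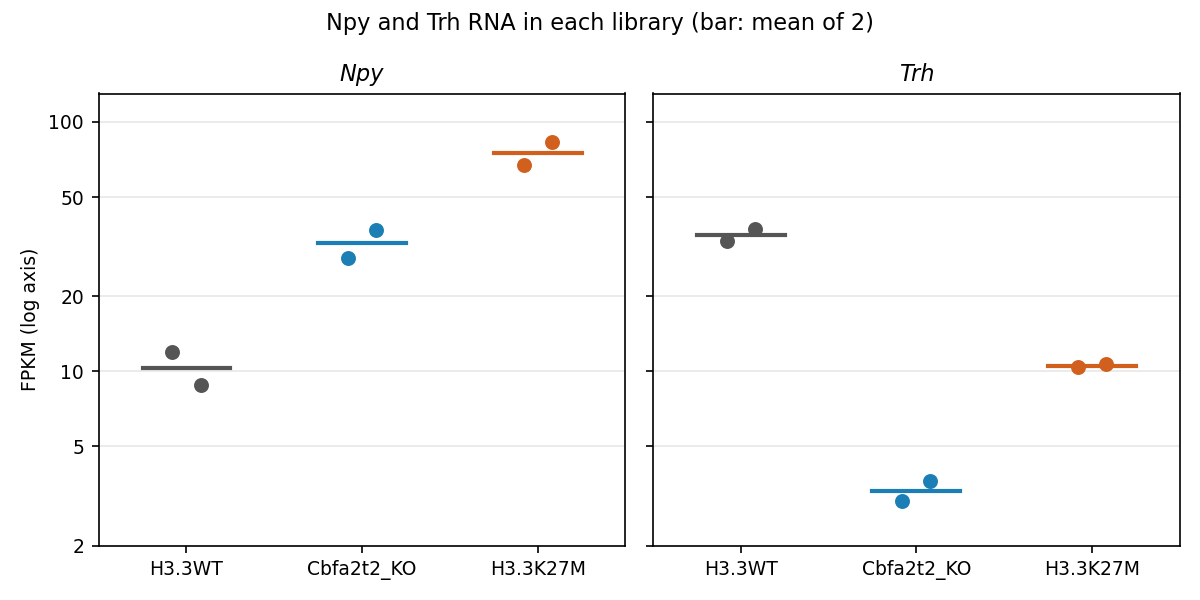
FPKM of Npy and Trh on a log axis in each of the 6 libraries, by line; points are libraries and bars are group means. Npy is lowest in H3.3WT (8.82 and 11.9 FPKM) and highest in H3.3K27M, while Trh is lowest in Cbfa2t2_KO (3.03 and 3.62 FPKM) and highest in H3.3WT.

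Npy mRNA was more abundant in the Cbfa2t2_KO line than in H3.3WT. The mean was 10.3 ± 2.2 FPKM (SD, n = 2) in H3.3WT and 32.8 ± 5.9 FPKM (SD, n = 2) in Cbfa2t2_KO, 3.17-fold higher. On the log2(FPKM + 1) scale, which understates the change of low genes, the difference was 1.58 ± 0.19 (SE by limma). Both Cbfa2t2_KO libraries were above both H3.3WT libraries. Of the 11626 genes fitted, 70 were higher by as much, Npy among them. Over 13 alternative settings the Npy difference ran from 1.38 to 1.77. In this comparison 34.6% of the 11626 genes passed the threshold of an adjusted p under 0.05 by limma with Benjamini-Hochberg adjustment over all genes, 13.1% of them as higher and 21.5% as lower.

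Trh was less abundant in Cbfa2t2_KO than in H3.3WT. Mean Trh was 35.2 ± 2.9 FPKM (SD, n = 2) in H3.3WT and 3.33 ± 0.41 FPKM (SD, n = 2) in Cbfa2t2_KO, 10.6-fold lower. The log2(FPKM + 1) difference was -3.07 ± 0.16 (SE), and 5 of the 11626 genes, Trh among them, were lower by as much.

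In the H3.3K27M line Trh was also below H3.3WT, though less far. Mean Trh was 10.6 ± 0.15 FPKM (SD, n = 2), 3.34-fold below the H3.3WT mean, with a log2(FPKM + 1) difference of -1.65 ± 0.17 (SE). Both H3.3K27M libraries were below both H3.3WT libraries. In all, 85 of the 11623 genes fitted, Trh included, were lower by as much. Over 13 alternative settings the Trh difference ran from -1.73 to -1.48. Here 26.2% of the 11623 genes passed, 8.42% of all tested as higher and 17.8% as lower.

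Npy was at a mean of 75.2 ± 12 FPKM (SD, n = 2) in H3.3K27M, 7.27-fold the H3.3WT mean. Its log2(FPKM + 1) difference was 2.75 ± 0.20 (SE), and 5 of the 11623 genes, Npy among them, were higher by as much. Set side by side, the Npy difference from H3.3WT was 1.58 in Cbfa2t2_KO and 2.75 in H3.3K27M, and the Trh difference was -3.07 and -1.65. Both comparisons use the same H3.3WT libraries.

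Between the altered lines, both precursors were higher in H3.3K27M than in Cbfa2t2_KO. The Npy mean was 2.29-fold higher, a log2(FPKM + 1) difference of 1.18 ± 0.19 (SE), and 70 of 11464 genes, Npy included, were higher by as much. The Trh mean was 3.17-fold higher, a difference of 1.42 ± 0.19 (SE), a size that 35 of 11464 genes reached. Within a library, the ratio of Npy to Trh FPKM was 0.358 and 0.237 in H3.3WT, 9.42 and 10.2 in Cbfa2t2_KO and 6.41 and 7.83 in H3.3K27M. Trh was thus the more abundant precursor mRNA per kilobase in both H3.3WT libraries and Npy in the 4 others.

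With 2 against 2 libraries an exact permutation test cannot give a two-sided p below 0.333, so the tests of the other genes rest on the spread that limma pools over genes. The RNA comes from bulk cultures, in which fewer expressing cells and less RNA per cell cannot be told apart.

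Across the series, summed FPKM ran from 363586 to 419389 per library, and the read depth is unknown. Cbfa2t2 itself was at 1.38 and 1.35 FPKM in H3.3WT, 1.02 and 0.769 in Cbfa2t2_KO and 2.02 and 0.855 in H3.3K27M, and its difference in Cbfa2t2_KO (-0.32 on the log2 scale, limma adjusted p = 0.15) does not check the knockout label either way. H3f3a, knocked out in all lines, was at 66.3 to 181 FPKM, and whether its row counts reads of the tagged H3.3 was not tested. Of 13 neural stem and progenitor markers 11 had values in both tables, Sox1 and Fabp7 had no values under these names, and Pax6 was at 0.232 to 0.926 FPKM. Pluripotency markers summed to 927 to 1365 FPKM, most of it Pou5f1, a gene not typical of neural stem cells.

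Several marker sums moved with the peptide genes, and their part in the results was not tested. The 11 neural stem markers summed to 218 to 226 FPKM in H3.3WT, 140 to 146 in Cbfa2t2_KO and 167 to 179 in H3.3K27M, a sum in the same order of lines as Trh that its members did not all share. Of 9 tested, 5 were lower and 2 higher in each altered line by limma. Among all tested genes 21.5% were lower and 13.1% higher in Cbfa2t2_KO, and 17.8% and 8.42% in H3.3K27M. The marker counts below stand beside these shares too. Sox3, the most abundant, was lower in both lines (means of 90.9, 50.8 and 51.1 FPKM). Vim (11.2, 26.9 and 38.2 FPKM) and Prom1 (3.07, 6.69 and 7.07 FPKM) were the 2 called higher in both lines. The 2 of 6 astrocyte markers with values, Gja1 and Aldh1l1, summed to 14.4 to 21.8, 21.8 to 36.5 and 42.9 to 53.2 FPKM. Gfap, Aqp4, S100b and Slc1a2 had no values under these names. The order of that sum, as for Npy, came from Gja1, its larger part. Gja1 in Cbfa2t2_KO (31.4 and 16.2 FPKM) overlapped H3.3WT (19.4 and 12.8 FPKM) and did not pass there (limma adjusted p = 0.24). It was called higher in H3.3K27M (limma adjusted p = 0.0047). Aldh1l1 was called higher in both lines by limma, with means of 5.36 FPKM in Cbfa2t2_KO and 5.13 FPKM in H3.3K27M. The 5 of 10 neuroendocrine markers with values in both tables summed to 11.9 to 14.3, 22.3 to 22.5 and 16.1 to 16.6 FPKM, higher in both altered lines than in H3.3WT, with more than any other marker from Ptprn (means of 7.47, 14.7 and 10.5 FPKM). Chgb, Scg3, Pcsk1 and Pcsk2, which define that cell type, had no values under these names. The 8 of 14 neuronal markers summed to 93.4 to 95.8, 146 to 161 and 85.6 to 89.8 FPKM, most of it Tubb3 (means of 68.2, 131 and 70.0 FPKM). Of 7 neuronal markers tested in Cbfa2t2_KO, 2 were higher (Tubb3 and Syp) and 2 lower (Nefl and Nefm) by limma, with a median difference of -0.33 on the log2(FPKM + 1) scale. Of 6 tested in H3.3K27M, 4 were lower (Nefl, Nefm, Rbfox3 and Elavl3), with a median of -0.58. The medians of all genes were -0.11 in Cbfa2t2_KO and -0.12 in H3.3K27M. Mesenchymal markers with values in both tables (4 of 7) summed to 7.54 to 10.5, 5.07 to 5.98 and 12.1 to 12.3 FPKM. Acta2 had the order of that sum (means of 4.78, 1.67 and 8.02 FPKM), and the members did not move together. Of 4 mesenchymal markers tested in Cbfa2t2_KO, 2 were higher (Col3a1 and Col1a1) and 2 lower (Acta2 and Pdgfrb) by limma. Of 3 tested in H3.3K27M, 1 was higher (Col3a1) and 1 lower (Pdgfrb). The only leukocyte marker with values (1 of 5), Cd68, was at 1.18 to 1.24, 3.82 to 4.37 and 2.53 to 2.60 FPKM. The oligodendrocyte (1 of 6) and endothelial (1 of 4) markers with values in both tables reached at most 2.91 and 0.689 FPKM. The oligodendrocyte marker Cnp had no values in H3.3K27M. It was at 0.426 and 0.172 FPKM in H3.3WT and 1.90 and 2.04 in Cbfa2t2_KO, called higher (limma adjusted p = 0.0020). The endothelial marker Pecam1 had no values in Cbfa2t2_KO. It was at 0.316 and 0.319 FPKM in H3.3WT and 0.373 and 0.531 in H3.3K27M, and it was not tested.

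The other genes of the peptide pathway were followed in 5 lists, namely precursors, processing enzymes, receptors and peptidases, vesicle genes and known regulators of Npy and Trh. The lists hold 173 genes besides Npy and Trh. In Cbfa2t2_KO 61 of them were tested, of which 8 rose, 18 fell and 35 did not pass, 42.6% called beside 34.6% of all genes. In H3.3K27M 61 were tested, of which 5 rose, 14 fell and 42 did not pass, 31.1% called beside 26.2%. These shares were near those of all genes. The median difference of all genes was -0.11 and -0.12 on the log2(FPKM + 1) scale, and it is 0.00 after median-of-ratios scaling, under which the pathway split becomes 10 higher and 16 lower in Cbfa2t2_KO and 5 higher and 12 lower in H3.3K27M. Under that scaling, 17.9% of all genes were called higher and 17.4% lower in Cbfa2t2_KO, and 11.8% and 12.3% in H3.3K27M. The counts depended on single libraries: 14 pathway genes were called without Cbfa2t2_KO replicate 2, and, of the 19 in H3.3K27M, 9 without H3.3WT replicate 1, 4 without H3.3WT replicate 2 and 10 without H3.3K27M replicate 2.

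Npy and Trh were the precursors with the highest single-library levels among the neuropeptide and peptide hormone genes examined. Of 70 precursors in the list 11 had values in all 6 libraries. Npy ran from 8.82 to 83.4 FPKM and Trh from 3.03 to 37.2 FPKM, in their highest library ahead of Apela (2.22 to 24.0), Apln (9.78 to 18.5) and Insl6 (4.40 to 7.60). This ranking holds for the highest library only. In every Cbfa2t2_KO and H3.3K27M library Trh was below Apln (16.2 to 18.5 FPKM), and in Cbfa2t2_KO also below Insl6 (5.54 and 7.60 FPKM). In H3.3WT replicate 2 Npy (8.82 FPKM) was below Apln (10.9 FPKM). Adm2, Npw, Calca, Nmb, Npb and Adm stayed below 5 FPKM in every library. Besides Npy and Trh, 7 precursors were tested in Cbfa2t2_KO, of which 1 rose and 1 fell, and 6 in H3.3K27M, of which 2 rose and 1 fell. Their median differences were 0.27 and -0.13 on the log2(FPKM + 1) scale, beside -0.11 and -0.12 for all genes. The shares of all tested genes called were 13.1% higher and 21.5% lower in Cbfa2t2_KO, and 8.42% and 17.8% in H3.3K27M.

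**Figure D2:**
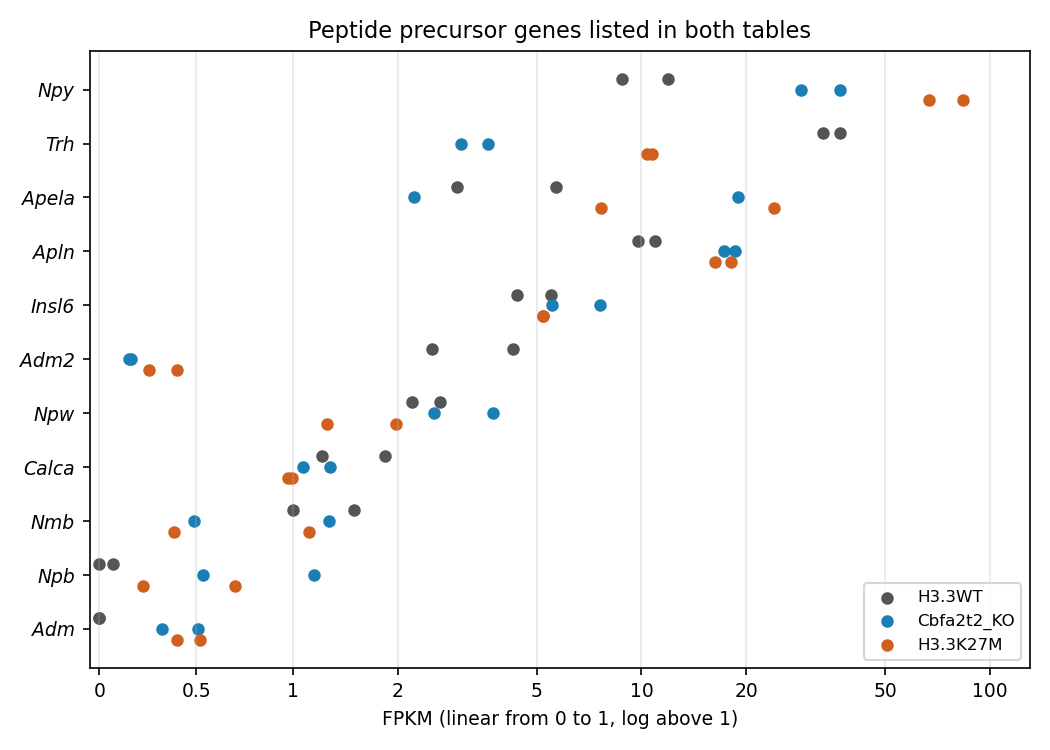
FPKM of the 11 precursor genes with values in all 6 libraries, on an axis that is linear up to 1 FPKM and logarithmic above it; each point is a library, coloured by line. Npy reaches 83.4 FPKM and Trh 37.2 FPKM, and the other precursors stay at or below 24.0 FPKM.

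Adm2, the precursor of adrenomedullin 2, shared the direction of Trh. It was at 4.29 and 2.51 FPKM in H3.3WT, 0.165 and 0.155 in Cbfa2t2_KO and 0.400 and 0.256 in H3.3K27M, and it fell in both lines by limma with Benjamini-Hochberg adjustment (-1.89, adjusted p = 0.0011, and -1.70, adjusted p = 0.0023). Apln, the precursor of the apelin receptor's ligand, shared the direction of Npy. It was at 9.78 and 10.9 FPKM in H3.3WT, 18.5 and 17.3 in Cbfa2t2_KO and 18.1 and 16.2 in H3.3K27M, and it rose by 0.74 (limma adjusted p = 0.0087) and 0.68 (limma adjusted p = 0.023). The H3.3K27M call of Apln was lost on leaving out any 1 of the 4 libraries, with adjusted p from 0.054 to 0.14. Apela, the precursor of a second apelin receptor ligand, spread widely within groups, at 2.96 and 5.70, 18.9 and 2.22, and 24.0 and 7.63 FPKM. Its difference was 0.63 (limma adjusted p = 0.51) in Cbfa2t2_KO, where it turned to -0.68 without replicate 1 and to 1.95 (adjusted p = 0.020) without replicate 2. In H3.3K27M it was 1.51 (limma adjusted p = 0.040), a call lost under robust eBayes (adjusted p = 0.24), in the model of all 6 libraries (adjusted p = 0.16) and with the GC and length correction (1.34, adjusted p = 0.10). It was also lost without H3.3WT replicate 1 (1.13, adjusted p = 0.19), H3.3WT replicate 2 (1.89, adjusted p = 0.061) or H3.3K27M replicate 1 (0.74, adjusted p = 0.14).

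Of genes for processing precursors such as those of NPY and TRH, 1 of 9 passed in Cbfa2t2_KO and 3 of 9 in H3.3K27M. Among all tested genes 34.6% and 26.2% passed. Of 9 tested processing genes, none rose by limma (2 at an unadjusted p under 0.05) and 1 fell in Cbfa2t2_KO, with 2 higher and 1 lower under median-of-ratios scaling, and 1 rose and 2 fell in H3.3K27M, with medians of 0.09 and -0.30 on the log2(FPKM + 1) scale. Pcsk1 and Pcsk2, the convertases of regulated secretion that cut both precursors, and Qpct, which forms the cyclic amino end of TRH, had no values under these names. Cpe, the carboxypeptidase that trims the basic residues left by cleavage, was at 17.2 to 25.5 FPKM with differences of 0.12 (limma adjusted p = 0.60) and 0.37 (limma adjusted p = 0.15). Pam, the enzyme that amidates both peptides from their glycine, was at 1.11 to 1.72 FPKM with differences of -0.17 (limma adjusted p = 0.47) and 0.03 (limma adjusted p = 0.91). Furin, a convertase of the constitutive pathway, differed by 0.41 (limma adjusted p = 0.099) and -0.48 (limma adjusted p = 0.10), and it passed in Cbfa2t2_KO under median-of-ratios scaling (0.51, adjusted p = 0.044), quantile normalization (0.54, adjusted p = 0.039) and the GC and length correction (0.50, adjusted p = 0.019).

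Pcsk7, another constitutive convertase, fell in both lines, from 5.23 and 8.04 FPKM in H3.3WT to 3.60 and 2.75 in Cbfa2t2_KO (-0.85, limma adjusted p = 0.023) and to 2.57 and 2.34 in H3.3K27M (-1.12, limma adjusted p = 0.0095). Both Pcsk7 calls depended on H3.3WT replicate 2 (without it, adjusted p = 0.13 and 0.075) and on the second replicate of the altered line (adjusted p = 0.13 and 0.055). Qpctl, the Golgi relative of Qpct, had 3.11 and 2.63 FPKM in H3.3WT and 2.76 in each Cbfa2t2_KO library (-0.04, limma adjusted p = 0.88), and it fell to 1.38 and 1.43 FPKM in H3.3K27M (-0.69, limma adjusted p = 0.026). That call was lost on leaving out any 1 library, with adjusted p from 0.061 to 0.15. Scg5, a chaperone of Pcsk2, rose in H3.3K27M by 0.64 (limma adjusted p = 0.033), which did not pass without H3.3WT replicate 1, H3.3WT replicate 2 or H3.3K27M replicate 2 (adjusted p = 0.086, 0.20 and 0.12).

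The receptor and peptidase genes with values were few. Of the receptors, Npy1r, which binds NPY, was at 2.27 and 3.06 FPKM in H3.3WT, 1.07 and 1.10 in Cbfa2t2_KO and 1.34 and 1.59 in H3.3K27M. It fell in Cbfa2t2_KO (-0.80, limma adjusted p = 0.012), a call that missed the threshold when H3.3WT replicate 2 (adjusted p = 0.074) or the second Cbfa2t2_KO library (adjusted p = 0.057) was left out, and its difference in H3.3K27M was -0.57 (limma adjusted p = 0.062). Npy2r, Npy5r, the TRH receptor gene Trhr and the TRH-degrading ectoenzyme gene Trhde had no values under these names. Pgpep1, a cytosolic peptidase that removes the cyclic amino end of peptides such as TRH, was at 11.3 and 11.8 FPKM in H3.3WT, 5.90 and 6.12 in Cbfa2t2_KO and 4.15 and 3.94 in H3.3K27M. Like Trh it fell in both lines, by 0.84 (limma adjusted p = 0.0061) and by 1.31 (limma adjusted p = 0.0026) on the log2(FPKM + 1) scale, but its lowest group was H3.3K27M. Xpnpep1, an aminopeptidase acting at proline, rose in Cbfa2t2_KO by 0.42 (limma adjusted p = 0.049) and was not called on leaving out any 1 library (adjusted p from 0.085 to 0.22), in the model of all 6 libraries (0.055), without the filter on low values (0.060) or with a pseudocount of 0.1 FPKM (0.053). In all, 1 of 4 tested genes rose and 2 fell in Cbfa2t2_KO, and none rose by limma (0 at an unadjusted p under 0.05) and 1 fell in H3.3K27M, with medians of -0.32 and -0.30. Over all tested genes 34.6% passed in Cbfa2t2_KO and 26.2% in H3.3K27M.

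Of the genes for granins and dense-core vesicles, 6 of 15 tested rose and 2 fell in Cbfa2t2_KO, and 2 of 16 rose and 2 fell in H3.3K27M (none fell under median-of-ratios scaling). Of all tested genes 13.1% were higher and 21.5% lower in Cbfa2t2_KO, and 8.42% and 17.8% in H3.3K27M. The list's medians were 0.06 and -0.01, beside -0.11 and -0.12 for all genes. Hid1, needed for vesicle formation at the Golgi, stood out, with 1.93 and 1.60 FPKM in H3.3WT, 10.0 and 11.1 in Cbfa2t2_KO and 4.80 and 4.11 in H3.3K27M. It rose by 2.06 (limma adjusted p = 4.3e-04) and by 0.98 (limma adjusted p = 0.0085), the latter with an adjusted p of 0.070 without H3.3WT replicate 2. Nucb2, the nesfatin precursor, rose in Cbfa2t2_KO by 0.96 (limma adjusted p = 0.0095), with an adjusted p of 0.052 without H3.3WT replicate 2. Slc18a1, a vesicular monoamine transporter, fell in Cbfa2t2_KO by 1.02 (limma adjusted p = 0.0038) and in H3.3K27M by 0.69 (limma adjusted p = 0.036). The latter call, and that of the vesicle GTPase gene Rab3d in H3.3K27M (-0.68, limma adjusted p = 0.029), were lost under median-of-ratios scaling (adjusted p = 0.054 and 0.053), under quantile normalization (0.053 and 0.060) and without H3.3WT replicate 1 (0.18 and 0.16), H3.3WT replicate 2 (0.10 and 0.11) or H3.3K27M replicate 2 (0.14 and 0.095).

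Of 26 tested genes for known transcription regulators of Npy and Trh, none rose in either line by limma (0 in each at an unadjusted p under 0.05), 12 fell in Cbfa2t2_KO and 8 fell in H3.3K27M, with medians of -0.45 and -0.52. Of all tested genes 21.5% and 17.8% were called lower, with medians of -0.11 and -0.12. Under quantile normalization 1 of them rose in Cbfa2t2_KO. The Egr1 transcript, from an immediate early gene, fell most, from 173 and 273 FPKM in H3.3WT to 7.55 and 7.59 in Cbfa2t2_KO and 5.97 and 6.43 in H3.3K27M (-4.67, limma adjusted p = 9.8e-05, and -4.93, limma adjusted p = 9.6e-05). Klf10, also induced early by growth signals, fell by 1.26 (limma adjusted p = 0.0024) and by 1.08 (limma adjusted p = 0.0064), the latter with an adjusted p of 0.056 without H3.3WT replicate 2. Fos fell by 1.38 (limma adjusted p = 0.014) and 1.20 (limma adjusted p = 0.025), but its H3.3WT libraries stood at 3.24 and 7.78 FPKM. The Fos call in H3.3K27M did not survive leaving out H3.3WT replicate 2 (-0.67, adjusted p = 0.12) or either H3.3K27M library (adjusted p = 0.070 and 0.12), and that in Cbfa2t2_KO without either Cbfa2t2_KO library (adjusted p = 0.071 and 0.061).

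Among factors tied to the Trh promoter, Rxra, a partner of the thyroid hormone receptor, fell in both lines, from 12.6 and 13.1 FPKM to 8.28 and 8.06 in Cbfa2t2_KO (-0.60, limma adjusted p = 0.020) and to 6.16 and 4.82 in H3.3K27M (-1.10, limma adjusted p = 0.0056). The Cbfa2t2_KO call was lost on leaving out any 1 library, with adjusted p from 0.053 to 0.087. Atf1, of the CREB family that binds the cAMP response element, fell from 18.6 and 20.5 to 7.70 and 7.24 FPKM in Cbfa2t2_KO (-1.28, limma adjusted p = 0.0012). In H3.3K27M it was at 16.9 and 11.4 FPKM (-0.46, limma adjusted p = 0.14), and it passed there without replicate 1 (-0.73, adjusted p = 0.039). Rcor2, a corepressor that works with the silencer REST, was at 55.9 to 72.2 FPKM with differences of -0.15 (limma adjusted p = 0.43) and -0.13 (limma adjusted p = 0.63).

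**Figure D3:**
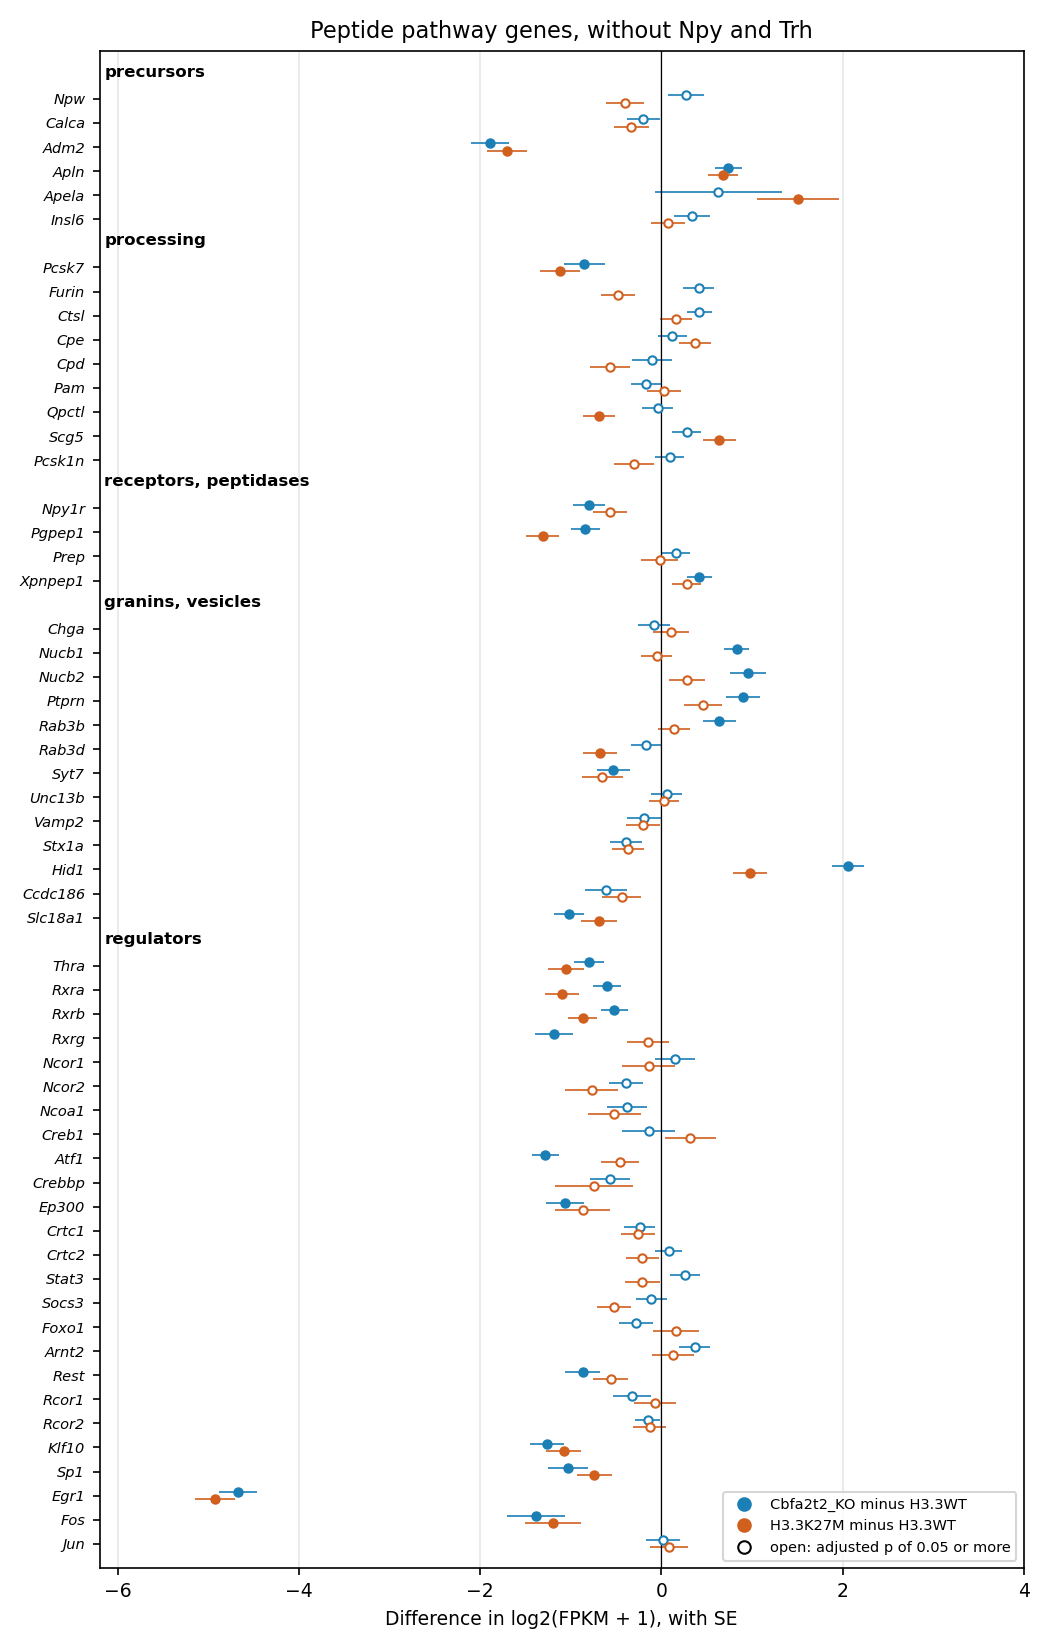
Difference from H3.3WT in log2(FPKM + 1), with its standard error, for peptide pathway genes tested in both comparisons, without Npy and Trh; filled points have a limma adjusted p under 0.05. Egr1 has the largest differences (-4.67 in Cbfa2t2_KO and -4.93 in H3.3K27M), and Hid1 the largest increase in Cbfa2t2_KO (2.06).

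The 2 genes were also compared in shape with 68 other named genes. These had a mean of at least 1 FPKM over the 6 libraries and group means that spanned at least 2 log2 units. The libraries form 3 groups, so a Pearson correlation of log2(FPKM + 1) mostly follows the group levels, and it is given as a description. The profile of Npy was nearest to that of Snhg5, a small nucleolar RNA host gene (r = 0.988), followed by the interferon-inducible membrane protein gene Ifitm1 (r = 0.946) and the sterol synthesis gene Hmgcs1 (r = 0.922). Ier3, Spp1 and Sept4 came next, at 0.895, 0.884 and 0.745. Snhg5 was at 3.05 and 2.31 FPKM in H3.3WT, 8.52 and 7.41 in Cbfa2t2_KO and 15.1 and 16.7 in H3.3K27M, the same order of lines as Npy.

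More of these genes had a profile near that of Trh. Of the 68, 10 had a correlation of at least 0.95 with Trh and 1 with Npy. How many of the 68 were highest in H3.3WT, as Trh was, or lowest there, as Npy was, is not given. The 2 counts therefore depend on which genes passed the filter. The nearest to Trh were Rab20 (r = 0.992), a small GTPase gene, Lcmt2 (r = 0.989), whose product modifies transfer RNA, and Rrs1 (r = 0.987), a ribosome assembly factor gene. Zfp105, Gpatch4 and Junb followed at 0.984, 0.980 and 0.974. Rab20 was at 20.4 and 29.4 FPKM in H3.3WT, 2.95 and 3.82 in Cbfa2t2_KO and 8.67 and 10.5 in H3.3K27M.

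**Figure D4:**
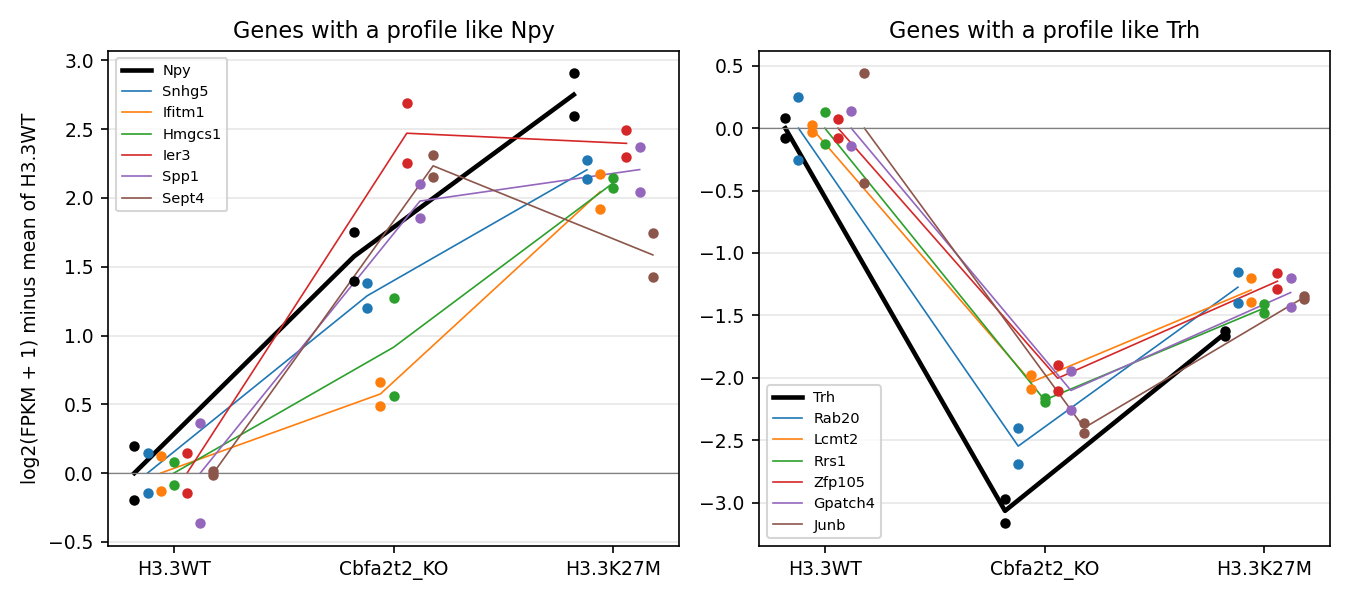
log2(FPKM + 1) minus the H3.3WT mean for Npy (left) and Trh (right), in black, with the 6 genes nearest to each in profile; points are libraries and lines join group means. Npy climbs from H3.3WT to H3.3K27M, whereas Trh and the genes nearest to it are lowest in Cbfa2t2_KO.

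The tested genes near Npy and Trh on chromosome 6 are given as a description. Npy and Trh were chosen by their own FPKM, so smaller differences in their neighbours carry no information on the locus. The counts below stand beside 34.6% of all tested genes that passed in Cbfa2t2_KO and 26.2% in H3.3K27M. Within 1 Mb of the Npy start, 8 genes were tested in Cbfa2t2_KO, where none passed by limma and 0 had an unadjusted p under 0.05, and 9 were tested in H3.3K27M, of which 2 rose. Those 2 were the nearest tested protein-coding genes on each side, Ccdc126 (503 kb) with a difference of 0.74 (limma adjusted p = 0.047) and Mpp6 (288 kb) with 0.78 (limma adjusted p = 0.028), beside 2.75 for Npy. Both calls were lost on leaving out any 1 library (adjusted p from 0.051 to 0.28 for Ccdc126 and from 0.054 to 0.19 for Mpp6), and that of Ccdc126 also with a pseudocount of 0.1 FPKM (0.052) or without the filter (0.053). In Cbfa2t2_KO, Ccdc126 passed under median-of-ratios scaling (0.59, limma adjusted p = 0.034), quantile normalization (0.61, 0.043) and the GC and length correction (0.64, 0.018). Genes under the filter of a mean of 1 FPKM were not tested, and 1 of these had a larger ratio than Npy in Cbfa2t2_KO. Fam221a, 455 kb from Npy, was at 0.274 and 0.361 FPKM in H3.3WT, 1.22 and 1.17 in Cbfa2t2_KO and 0.853 and 0.889 in H3.3K27M, 3.77-fold and 2.74-fold the H3.3WT mean, beside 3.17-fold and 7.27-fold for Npy. In the other direction, 4921507P07Rik, 774 kb from Npy, was at 0.969 and 1.15 FPKM in H3.3WT, 0.429 and 0.266 in Cbfa2t2_KO and 0.225 and 0.310 in H3.3K27M, 3.05-fold and 3.97-fold lower. Both were named after their values were seen. Within 1 Mb of the Trh start, 15 genes were tested in each line, with 2 higher and 3 lower in Cbfa2t2_KO and none higher (1 at an unadjusted limma p under 0.05) and 1 lower in H3.3K27M. The nearest on each side were Rbsn (29.7 kb), with -0.50 (limma adjusted p = 0.042) in Cbfa2t2_KO, and Prickle2 (462 kb), with -0.81 (limma adjusted p = 0.015), beside -3.07 for Trh. The Rbsn call was lost under median-of-ratios scaling and quantile normalization (adjusted p = 0.11 in each), in the model of all 6 libraries (0.067) and on leaving out any 1 library (adjusted p from 0.076 to 0.17), and that of Prickle2 on leaving out either H3.3WT library or Cbfa2t2_KO replicate 2 (adjusted p = 0.056, 0.052 and 0.087). In H3.3K27M, Prickle2 passed under robust eBayes (-0.66, adjusted p = 0.038) and with the GC and length correction (-0.51, adjusted p = 0.037).

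**Figure D5:**
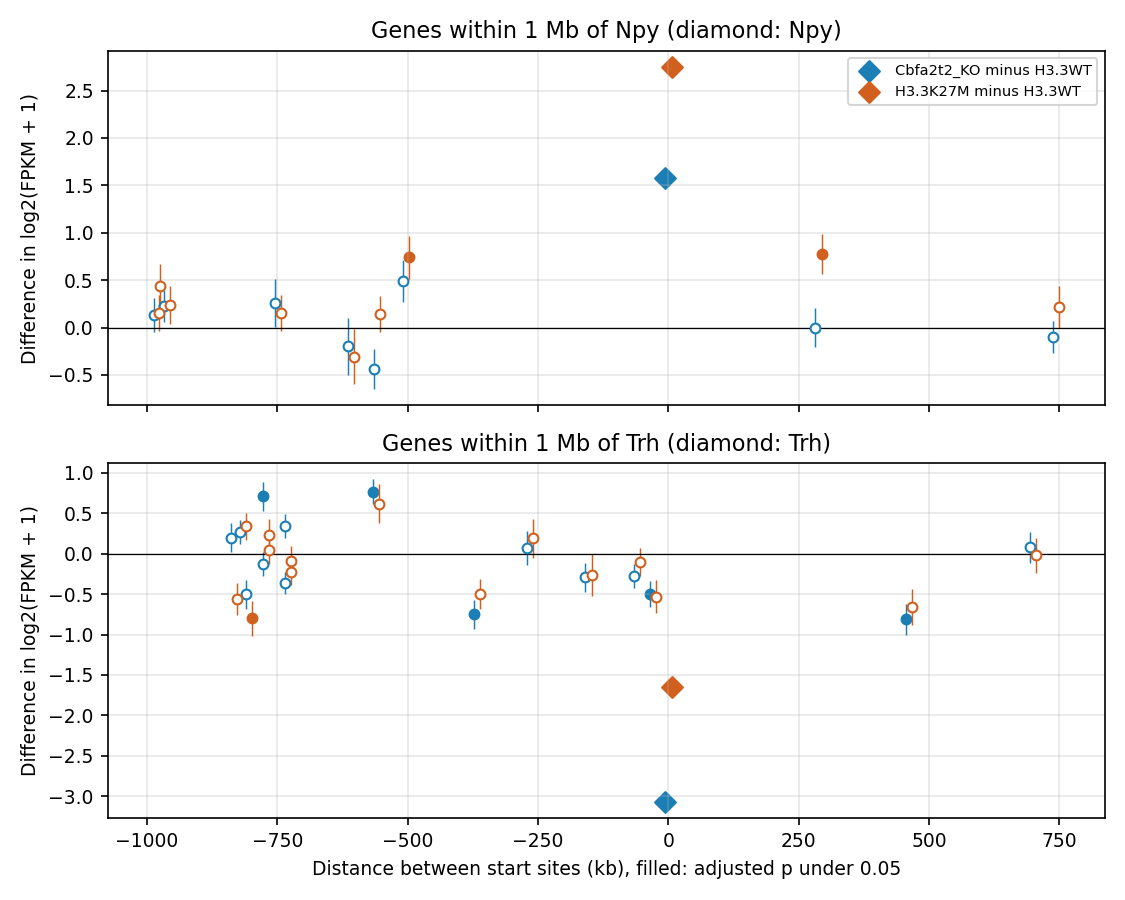
Difference from H3.3WT in log2(FPKM + 1), with its standard error, against the distance of start sites in kb, for tested genes within 1 Mb of Npy (top) and Trh (bottom). Diamonds are Npy (1.58 and 2.75) and Trh (-3.07 and -1.65), which were chosen by their FPKM. Filled circles are neighbours with a limma adjusted p under 0.05.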

How the data were processed

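The authors deposited FPKM values in 2 tables, Cbfa2t2_KO with H3.3WT (14431 genes) and H3.3K27M with H3.3WT (14318 genes); the 14082 genes in both have identical H3.3WT values. Trim Galore, HISAT2, StringTie, DESeq and GRCm38 are named, per the submitters' processing notes; versions and the annotation release are not given in the sources used here, nor is strand. Every gene reached at least 0.5001 FPKM in a library. Low values were not whole multiples of a read step (highest share 0.252 to 0.31, tolerance 0.1), so counts were not recovered and no interval was computed.

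Columns were matched to groups by name, and the H3.3K27M columns carry only the letter M. Replicate numbers only name libraries. Each comparison used 4 libraries and kept genes whose mean there reached 1 FPKM. Values were taken as log2(FPKM + 1) and tested in R 4.3.3 by limma (version 3.58.1, eBayes with trend), with Benjamini-Hochberg adjustment over all genes at a threshold of 0.05. Tests had been planned for Npy in Cbfa2t2_KO and Trh in H3.3K27M, but they are given without a test because the choice of these genes used those values. The procedure was tested on simulated data. Alternatives were a pseudocount of 0.1, no filter, a filter at 5 FPKM, median-of-ratios and quantile scaling, robust or untrended eBayes, one model for the 6 libraries and leaving out each library; a lowess correction for GC and length was chosen after seeing the data.

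The genes, the 5 pathway lists and the marker lists were chosen with earlier results of these data known. Named by rule were, per list and comparison, up to 4 called genes with the largest change (higher group mean at 2 FPKM or more), genes averaging 50 FPKM or more, the enzymes and receptors that act on NPY and TRH, the 6 nearest profiles without unnamed gene models, and the nearest tested protein-coding neighbours. The pathway counts include 2 such genes that are not reported here by name. Annotation was GENCODE vM21 (14652 of 14667 IDs found), and promoters were from RefSeq. Plots used Python 3.11.15 and matplotlib 3.10.9.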

Additional observations from a re-analysis of the deposited data

Results flagged for a closer look

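Of 59 pathway genes tested directly between H3.3K27M and Cbfa2t2_KO, 4 differed by limma with Benjamini-Hochberg adjustment, beside 554 of 11464 genes overall (4.83%). The values are log2(FPKM + 1) differences, H3.3K27M minus Cbfa2t2_KO, and each is listed because the lines differ in a test of the difference itself. Furin, the constitutive convertase, was at 6.28 and 5.89 FPKM in Cbfa2t2_KO and 3.17 and 2.53 in H3.3K27M, a difference of -0.89 ± 0.19 (SE, adjusted p = 0.041). Hid1, of vesicle formation, differed by -1.08 ± 0.19 (SE, adjusted p = 0.022). Nucb1, a calcium-binding Golgi protein gene, was at 33.4 and 35.9 FPKM in Cbfa2t2_KO and 18.7 and 18.1 in H3.3K27M, a difference of -0.88 ± 0.16 (SE, adjusted p = 0.026). Rxrg, a retinoid X receptor gene, was at 0.494 and 0.520 FPKM in Cbfa2t2_KO and 2.26 and 1.94 in H3.3K27M, a difference of 1.04 ± 0.17 (SE, adjusted p = 0.019). Nucb1 and Rxrg are outside the rule for named genes and were named after their values were seen. All 4 calls were lost without the filter on low values (adjusted p = 0.087, 0.065, 0.065 and 0.055), without Cbfa2t2_KO replicate 1 (0.15, 0.10, 0.11 and 0.10) and without Cbfa2t2_KO replicate 2 (0.28, 0.24, 0.28 and 0.18). Those of Furin, Hid1 and Nucb1 were also lost without H3.3K27M replicate 2 (0.12, 0.058 and 0.053).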

How the results depend on the processing

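No paired analysis was possible because the labels give no replicate numbers, so the numbers used here only name libraries. The differences of Npy in Cbfa2t2_KO and of Trh in H3.3K27M from H3.3WT kept their direction under all 13 alternatives. Both genes were chosen by these values, and their libraries did not overlap between the groups compared. Leaving out a library or changing the pseudocount, filter or eBayes setting therefore could not change the direction, and only the size of the difference is informative. Leaving out 1 library gave 1.38 to 1.77 for Npy and -1.73 to -1.56 for Trh. The described differences from H3.3WT then ran from 2.56 to 2.95 for Npy in H3.3K27M and from -3.16 to -2.97 for Trh in Cbfa2t2_KO, and those of H3.3K27M from Cbfa2t2_KO from 1.00 to 1.36 for Npy and from 1.32 to 1.52 for Trh. With a pseudocount of 0.1 FPKM, the Trh difference was -3.37 in Cbfa2t2_KO and 1.64 between H3.3K27M and Cbfa2t2_KO; the latter was 1.54 with the GC and length correction. Pathway genes called in Cbfa2t2_KO numbered 16 of 32 tested at a mean of at least 5 FPKM and 14 to 22 on leaving out 1 library, against 26. In H3.3K27M they numbered 11 of 29 and 4 to 22, against 19. Calls over all genes in Cbfa2t2_KO numbered 4028, 1915 without its replicate 2 and 2236 without H3.3WT replicate 2. In H3.3K27M they numbered 3049, 1206 and 1007 without H3.3WT replicate 1 and 2, and 1589 without H3.3K27M replicate 2.

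Of 797 alternative values for the 30 genes that the naming rule or the direct comparison gave, 665 kept direction and side of the threshold, 94 lost the call, 18 gained one and 20 changed sign, all from values that did not pass. On leaving out 1 library, values that changed sign ran, in Cbfa2t2_KO, from -0.68 (without Cbfa2t2_KO replicate 1) to 1.95 (without its replicate 2) for Apela, from -0.03 to 0.26 for Cpe (without H3.3WT replicate 1 and 2), from -0.20 to 0.21 for Mpp6 (without H3.3WT replicate 1 and 2; -0.11 without Cbfa2t2_KO replicate 1) and from -0.13 to 0.05 for Qpctl (without H3.3WT replicate 2 and 1). In H3.3K27M they ran from -0.10 to 0.16 for Pam, -0.14 to 0.04 for Nucb1, -0.43 to 0.12 for Rxrg and -0.25 to 0.00 for Rcor2; Pam was also at -0.05 without H3.3K27M replicate 1. Median-of-ratios scaling gave Qpctl 0.06 in Cbfa2t2_KO, and Nucb1 0.10 and Rcor2 0.02 in H3.3K27M; quantile scaling gave Qpctl 0.08 and Nucb1 0.14. The GC and length correction gave Qpctl 0.01 and Rcor2 0.00 in Cbfa2t2_KO, and Nucb1 0.18, Rcor2 0.25 and Rxrg 0.03 in H3.3K27M. The cause was not tested. Depth is unknown, and 2 libraries a group limit the precision of every value.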
